A study of Mus musculus with 12 samples.

Results

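The genotype by diet interaction was measured in mouse liver as the response to a high-fat diet (HFD) in mice lacking Ahnak minus the same response in wild-type mice. It was computed on the log2 scale for all 22180 genes that the array annotation gives a single symbol, out of 41345 probe sets, and all 12 arrays of the study entered it. A positive interaction means that the diet response lay higher in knockout than in wild-type mice, and a negative one that it lay lower. Every gene is described with its level in the 4 groups, because a difference of differences can come from either genotype.

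Each of the 12 arrays held total RNA from the liver of 1 male C57BL/6 mouse. Wild-type (WT) mice and Ahnak-deficient (KO) mice received either regular chow or an HFD with 60% fat, in groups matched for weight, and the diet period was 8 weeks. This gave 4 groups of 3 mice: WT on chow, WT on HFD, KO on chow and KO on HFD. The sources used here do not give the age of the mice, the deleted part of Ahnak, the breeding of the KO and WT mice, or the time of day and feeding state at collection.

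Array medians lay between 5.58 and 5.70, and arrays of 1 group correlated across genes with r between 0.992 and 0.994, where genes are not independent replicates. Arrays of different groups reached an r of 0.994 as well, so this measure does not separate the groups. Precision is limited by the number of arrays. The 3 WT arrays on HFD stood apart from the rest: 1544 genes (6.96%) lay higher and 1075 (4.85%) lower on them than on all other 9 arrays, against 219 (0.987%) and 367 (1.65%) for the KO arrays on HFD. The interaction cannot be computed without the WT HFD group, so single arrays were left out in turn instead. Hepatocyte markers were high in all groups, with a mean log2 signal over 11 markers of 13.17 to 13.29 on the 12 arrays. The 1 probe set of Ahnak, a gene for a giant scaffold protein under the cell membrane, read 6.50, 6.83 and 6.58 in WT mice fed chow, 7.26, 7.06 and 6.74 in WT mice fed HFD, 6.38, 6.74 and 6.66 in KO mice fed chow, and 6.46, 6.52 and 6.62 in KO mice fed HFD. The KO chow values overlapped those of WT on chow, and the interaction of -0.44 ± 0.20 did not pass (limma adjusted p = 0.28). The sources used here do not say whether this probe set lies in the deleted part, so its values do not check the genotype labels, which were taken as given. Xist, which male cells do not express, read 4.21 to 4.76, and sizes of changes that reach down to this level are less certain than their directions.

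High-fat feeding fills hepatocytes with lipid. Among the receptors and factors of hepatocytes, PPAR alpha drives genes that burn fatty acids, and SREBP-1c and its partners drive genes that make them. NRF2, CAR and PXR drive genes of detoxification. Many detoxification and steroid enzymes of mouse liver also differ between the sexes, because the rhythm of growth hormone release, pulsed in males and steady in females, acts on hepatocytes through STAT5B. Resident Kupffer cells, recruited macrophages and stellate cells add inflammatory and matrix genes to the RNA of the whole organ.

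Promoters are shown for 4 genes that carry the leading patterns: the gene with the largest positive interaction (Moxd1), the genes with the most negative interactions (Cyp2b9 and Hamp2) and the leading clock gene (Ciart). Each is the 250 bases before the RefSeq transcription start in GRCm38.p6, printed 5′ to 3′ on the strand of the gene. The windows are chr10:24223267-24223516 (+) for Moxd1, chr7:30924182-30924431 (-) for Hamp2, chr7:26173159-26173408 (+) for Cyp2b9 and chr3:95882229-95882478 (-) for Ciart. Capitals mark matches to 2 sets of letters: TTCNNNGAA, the palindrome bound by STAT factors, and CACGTG, the E-box bound by CLOCK and BMAL1.
Moxd1: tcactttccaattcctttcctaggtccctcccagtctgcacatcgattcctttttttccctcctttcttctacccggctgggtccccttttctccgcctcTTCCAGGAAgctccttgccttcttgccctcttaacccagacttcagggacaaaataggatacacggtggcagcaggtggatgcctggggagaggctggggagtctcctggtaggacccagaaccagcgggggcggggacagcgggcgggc
Hamp2: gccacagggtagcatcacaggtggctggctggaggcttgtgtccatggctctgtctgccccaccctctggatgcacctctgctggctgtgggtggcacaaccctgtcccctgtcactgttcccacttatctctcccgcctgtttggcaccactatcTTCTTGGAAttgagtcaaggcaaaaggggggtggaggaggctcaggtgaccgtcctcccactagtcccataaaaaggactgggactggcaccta
Cyp2b9: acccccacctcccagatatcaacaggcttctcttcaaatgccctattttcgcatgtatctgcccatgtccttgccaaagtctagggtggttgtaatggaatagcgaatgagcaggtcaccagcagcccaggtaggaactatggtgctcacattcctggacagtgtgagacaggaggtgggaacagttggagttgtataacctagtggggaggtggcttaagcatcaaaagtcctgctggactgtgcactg
Ciart: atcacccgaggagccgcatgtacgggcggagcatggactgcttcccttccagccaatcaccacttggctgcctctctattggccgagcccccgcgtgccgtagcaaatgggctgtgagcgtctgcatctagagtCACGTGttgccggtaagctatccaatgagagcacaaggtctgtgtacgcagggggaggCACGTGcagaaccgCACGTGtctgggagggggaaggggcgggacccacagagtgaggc
Moxd1 held 1 match to the STAT letters, from position -150 to -142 before its start, and Hamp2 held 1, from -94 to -86. The Cyp2b9 window held no match to either motif. Ciart held 3 E-boxes, at -116 to -111, -58 to -53 and -44 to -39. Both strands were searched in 16990 promoters of this length. The STAT letters stood in 6.85% of these, in 4.08% (10 of 245) of the promoters of genes with a positive interaction and in 4.92% (18 of 366) of those with a negative one. E-boxes stood in 6.86%, 9.39% and 7.38%, respectively. In the small lists the STAT letters stood in 16.7% (3 of 18) of male-biased and 14.3% (3 of 21) of female-biased promoters, and E-boxes in 22.7% (5 of 22) of those of clock genes. The letters CCAAT, the box bound by NF-Y, stood in 35.6% of all promoters, in 39.2% for positive and 46.2% for negative interactions. Matches are letters only, and binding was not measured.

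The response to HFD differed between KO and WT mice for 783 of 22180 genes (3.53%) at a limma adjusted p under 0.05. It lay higher in KO for 318 genes (1.43%) and lower for 465 (2.1%). Without adjustment, 3845 genes (17.3%) had a p under 0.05. With each array centred on its own median the split was 221 positive and 623 negative, so the positive share was 26.2% in place of 40.6%, and the median interaction of all genes moved by -0.0624. In WT mice HFD changed 1543 genes (6.96%), 891 up (4.02%) and 652 down (2.94%), with 4569 (20.6%) before adjustment. In KO mice it changed 54 (0.243%), 19 up (0.0857%) and 35 down (0.158%), with 1887 (8.51%) before adjustment. Leaving out any 1 array lowered both interaction counts, most for some arrays. The positive and negative counts were 172 and 272 without WT chow mouse 3, 162 and 281 without WT HFD mouse 2, and 191 and 290 without WT HFD mouse 3. They were 167 and 265 without KO chow mouse 2, 168 and 266 without KO chow mouse 3, and 191 and 298 without KO HFD 2. Fewer arrays also mean less precision, which was not separated from the influence of the array itself. The counts of diet responses moved both ways. The WT count was 815 without WT chow mouse 3 and 935, 860 and 867 without WT HFD mouse 1, 2 and 3, but 1691 without KO HFD mouse 1. The KO count was 28 without KO chow mouse 2 and 35 without KO chow 3, but 79 without KO HFD mouse 1 and 76 without WT chow mouse 1. KO and WT mice differed in 2 genes (0.00902%) on chow and in 2331 (10.5%) on HFD.

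**Figure D1:**
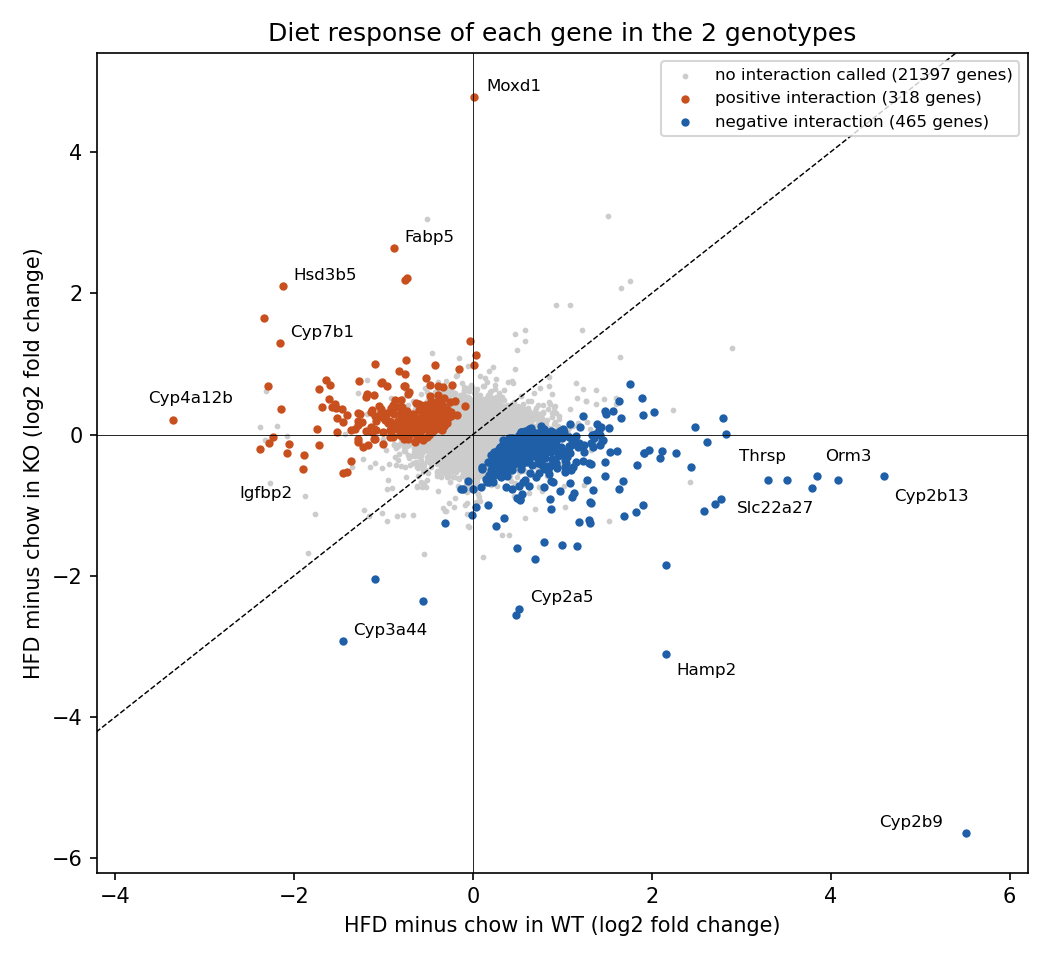
Diet response of every gene in KO (vertical axis, log2 fold change HFD minus chow) against WT (horizontal axis, same unit), with 318 positive interactions in orange, 465 negative ones in blue and 21397 other genes in grey. The vertical offset from the dashed line of equal response is the interaction, positive above the line and negative below. Most coloured points lie along the horizontal axis, where KO changed little, while Moxd1, Hamp2 and Cyp2b9 lie far from it.

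Most interactions came with a change in WT that had no called counterpart in KO. Of the 318 positive genes, 259 (81.4%) fell on HFD in WT alone, 9 rose in KO alone, 7 changed in opposite directions in both genotypes and 43 passed in neither genotype alone. Of the 465 negative genes, 367 (78.9%) rose in WT alone, 17 fell in KO alone, 9 changed in opposite directions, 2 fell in both and 70 passed in neither. Alone means that the other genotype's response was not called, not that it was absent. Each response was adjusted separately, and KO needed a smaller unadjusted limma p. Ildr2 was not called in KO at 0.000128, whereas Osgin1 was called in WT at 0.00138. Cyp7b1 counts as WT alone with a KO response of 1.30 (limma adjusted p = 0.0609). The estimated WT response was the larger in size for 88.4% of the positive and 84.3% of the negative genes, against 59.5% of all genes. The 2 responses had opposite signs for 88.7% and 86.9%, against 52.9% of all genes. Both responses are terms of the interaction, so these shares describe it and are no separate evidence. The median positive interaction was 0.85, with a WT response of -0.63 and a KO response of 0.21. The median negative interaction was -0.85, with 0.61 in WT and -0.21 in KO. At least 2-fold interactions numbered 111 positive and 164 negative, and at least 4-fold ones 20 and 43.

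**Figure D2:**
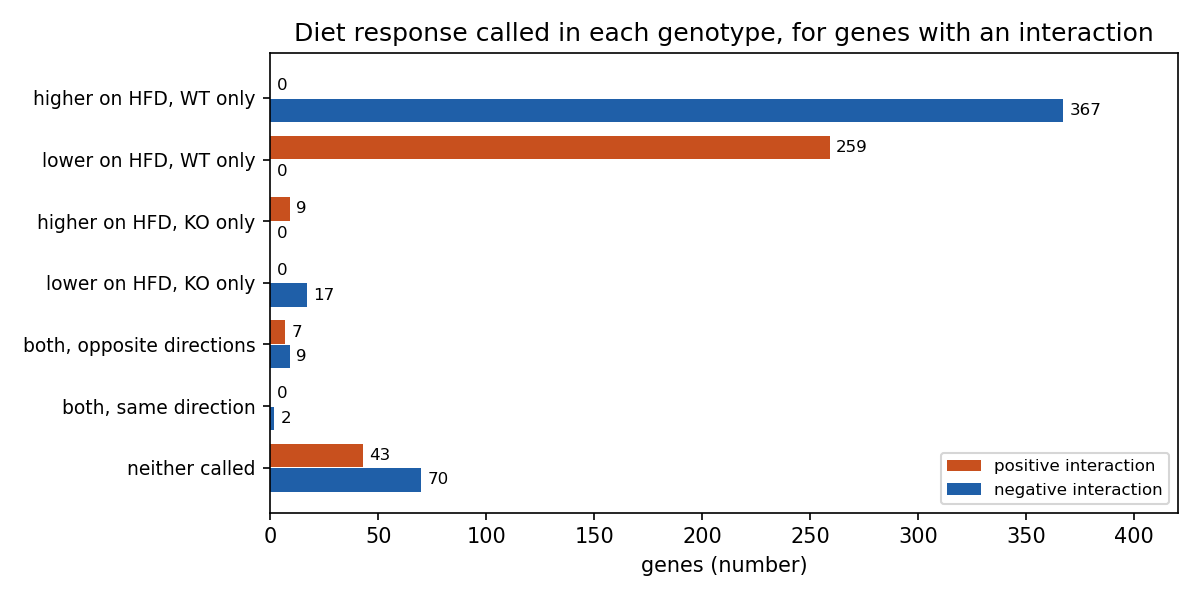
Number of genes with a positive (orange) or negative (blue) interaction by the genotype in which the diet response passed on its own. The bars for WT alone hold 259 positive and 367 negative genes, and those for KO alone 9 and 17.

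The largest positive interaction was that of Moxd1, a gene of the monooxygenase family that is higher in male than in female mouse liver. Its log2 signals were 4.96, 4.55 and 4.70 in WT mice fed chow, 4.89, 4.68 and 4.69 in WT mice fed HFD, 4.46, 4.96 and 4.90 in KO mice fed chow, and 8.69, 10.13 and 9.81 in KO mice fed HFD. The first 3 groups lay at the level of Xist, and every KO mouse on HFD lay far above them. The interaction was 4.76 ± 0.41 (standard error, SE; limma adjusted p = 9.45e-05), with a response of 0.01 in WT and 4.77 in KO, so its size is less certain than its direction.

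Cyp4a12b, a fatty acid hydroxylase gene of male liver, showed the other form of a positive interaction. It read 12.05, 12.14 and 12.01 in WT mice fed chow, 8.61, 8.95 and 8.57 in WT mice fed HFD, 11.65, 11.99 and 11.20 in KO mice fed chow, and 11.62, 11.79 and 12.04 in KO mice fed HFD. The WT mice on HFD lay below all others, and KO mice kept overlapping levels on both diets. Its WT response was -3.36 and its KO response 0.21 (interaction 3.56 ± 0.25, limma adjusted p = 2.26e-05).

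C6, a complement component gene that is also higher in males, had the smallest p among positive genes. It read 11.86, 12.09 and 12.08 in WT mice fed chow, 10.44, 10.16 and 10.28 in WT mice fed HFD, 11.65, 11.69 and 11.63 in KO mice fed chow, and 12.29, 12.28 and 12.33 in KO mice fed HFD. Mice of all 4 groups were separate: HFD lay below chow in WT and above chow in KO. The responses were -1.72 in WT and 0.64 in KO, both called, for an interaction of 2.36 ± 0.13 (limma adjusted p = 5.16e-06).

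Cyp7b1, an oxysterol hydroxylase gene, read 12.17, 12.50 and 12.38 in WT mice fed chow, 10.24, 9.99 and 10.34 in WT mice fed HFD, 12.04, 11.82 and 10.81 in KO mice fed chow, and 12.91, 12.82 and 12.82 in KO mice fed HFD. KO mice on HFD were the highest and WT mice on HFD the lowest, without overlap. Its interaction was 3.45 ± 0.34 (limma adjusted p = 0.000251). Hsd3b5, a steroid reductase gene of male liver, read 8.20, 10.10 and 10.22 in WT mice fed chow, 7.75, 7.76 and 6.62 in WT mice fed HFD, 7.80, 8.20 and 7.16 in KO mice fed chow, and 10.42, 9.67 and 9.36 in KO mice fed HFD. The first WT mouse on chow was near the WT mice on HFD and the KO mice on chow, the other WT mice on chow were near the KO mice on HFD, and the interaction was 4.23 ± 0.72 (0.00849). Selenbp2, a selenium-binding protein gene, rose by 2.21 in KO alone, from 9.87 to 12.08, and Ugt2b37, a glucuronosyltransferase gene, by 2.19, from 6.54 to 8.73. Ugt2b38 had an interaction of 3.98 ± 0.40, with means of 5.96 and 3.62 in WT, the second under the Xist level, and of 4.68 and 6.32 in KO. Ugt2b37 and Ugt2b38, like the Cyp4a12, Cyp2a, Cyp2b and Cyp3a genes and Orm2 and Orm3, have near copies whose RNA may bind the same probes, so values of single members are uncertain.

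The largest negative interaction was that of Cyp2b9, which encodes a steroid-hydroxylating cytochrome that is higher in females. It read 7.69, 8.88 and 6.75 in WT mice fed chow, 13.17, 13.30 and 13.40 in WT mice fed HFD, 7.88, 11.31 and 12.29 in KO mice fed chow, and 6.18, 4.39 and 3.98 in KO mice fed HFD. Mice of the WT HFD group were the highest and alike, KO mice on HFD were the lowest, at or near background in 2 of 3, and KO mice on chow ranged from the WT chow level to nearly that of WT on HFD. Its response was 5.52 in WT and -5.64 in KO, which gives an interaction of -11.16 ± 1.32 (limma adjusted p = 0.000837).

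Cyp2b13, its neighbour in the same gene family, read 4.50, 4.70 and 4.63 in WT mice fed chow, 8.72, 9.03 and 9.87 in WT mice fed HFD, 4.56, 4.68 and 5.46 in KO mice fed chow, and 4.46, 4.68 and 3.80 in KO mice fed HFD. Mice of the other groups lay near the Xist level and only WT mice on HFD well above it, so the KO response (-0.59, not called) has little room to fall, and the interaction of -5.18 ± 0.43 rests on WT. Slc22a27, an organic anion transporter gene of female liver, read 4.02, 3.63 and 4.56 in WT mice fed chow, 7.45, 7.13 and 8.17 in WT mice fed HFD, 3.85, 4.16 and 4.59 in KO mice fed chow, and 3.62, 3.62 and 3.45 in KO mice fed HFD. It was likewise clearly present in WT mice on HFD alone among the 4 groups (interaction -4.15 ± 0.39, limma adjusted p = 0.000153).

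Cyp2a5 and Cyp2a4, genes for coumarin and steroid hydroxylases, changed mainly in KO. Cyp2a5 read 8.27, 8.64 and 8.44 in WT mice fed chow, 9.03, 8.86 and 9.02 in WT mice fed HFD, 8.15, 8.26 and 8.36 in KO mice fed chow, and 5.85, 5.65 and 5.88 in KO mice fed HFD. KO mice on HFD lay below every other mouse by more than 2 log2 units, and WT mice on HFD lay slightly above those on chow. It had the smallest p of all genes, with an interaction of -2.98 ± 0.16 (limma adjusted p = 4.56e-06), made of 0.52 in WT and -2.46 in KO. Cyp2a4, higher in female liver, gave -3.04 ± 0.21 (2.26e-05), with 0.49 in WT, not called, and -2.56 in KO.

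Fmo2, a flavin monooxygenase gene, and Cux2, a transcription factor of female liver, followed another pattern. Fmo2 read 9.02, 9.002 and 8.90 in WT mice fed chow, 9.18, 9.21 and 9.29 in WT mice fed HFD, 9.79, 10.58 and 10.25 in KO mice fed chow, and 8.94, 8.90 and 8.90 in KO mice fed HFD. KO mice on chow lay above all others and KO mice on HFD were at the level of WT mice on chow. Its interaction was -1.55 ± 0.21 (limma adjusted p = 0.00214) and that of Cux2 -0.67 ± 0.12 (0.0139), where KO mice on chow averaged 7.53 and the other groups 6.63 to 6.75. Cyp3a44 fell on HFD in both genotypes, with responses of -1.45 in WT and -2.92 in KO, where it reached background, and its interaction of -1.47 ± 0.26 was a deeper fall in KO.

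**Figure D3:**
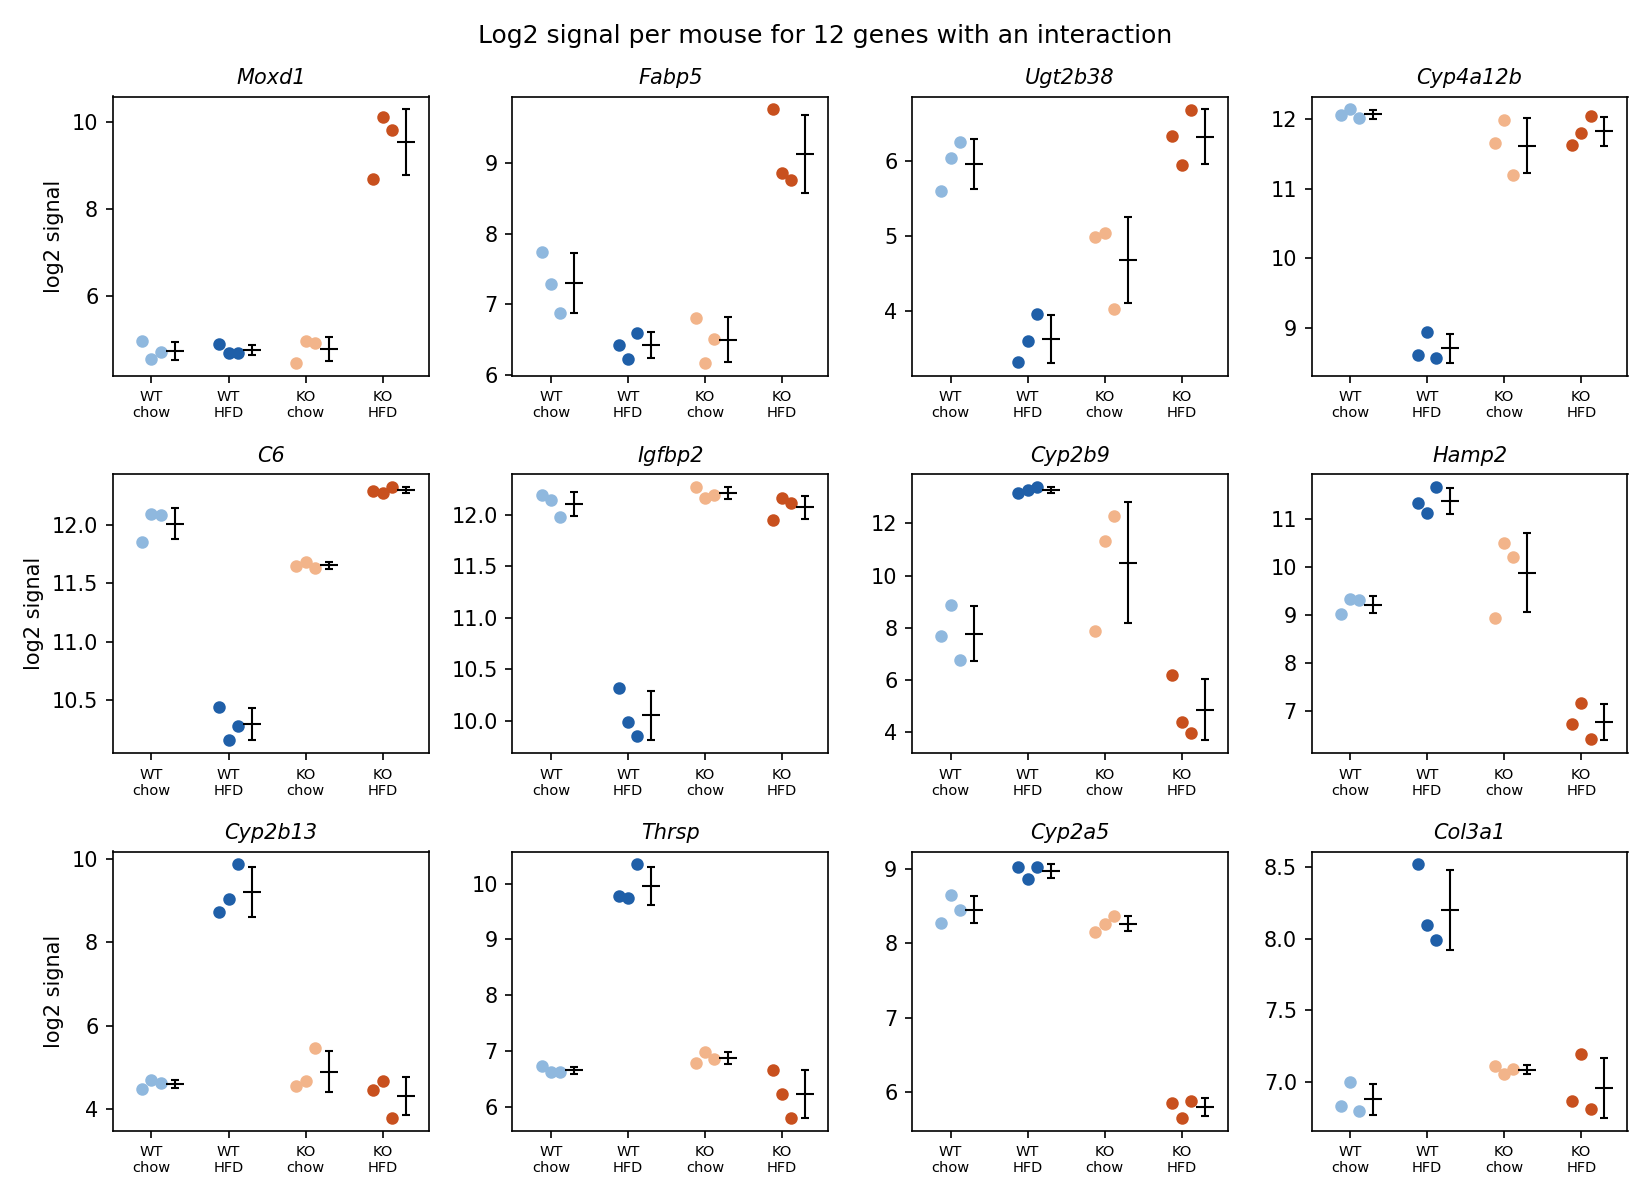
Log2 signal (vertical axis) of 12 genes with an interaction in each mouse of the 4 groups (horizontal axis), with the mean and standard deviation of 3 mice in black. Moxd1 and Fabp5 are high in KO on HFD alone, Cyp4a12b, Igfbp2, Thrsp, Cyp2b13 and Col3a1 stand apart in WT on HFD, and Cyp2b9 and Hamp2 move in opposite directions in the 2 genotypes.

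As lists, male-biased and female-biased liver genes moved against each other. Of 25 measured male-biased genes 14 passed with a positive interaction, 0 with a negative one and 11 did not pass, and their median interaction was 1.39, against -0.0028 over all genes, of which 1.43% passed with a positive interaction. Of 28 female-biased genes 0 passed with a positive interaction, 13 with a negative one (2.1% of all genes) and 15 did not pass, with a median of -0.68. With trend and robust settings 1 female-biased gene was positive, Cyp4a14 (0.26, limma adjusted p = 0.0377). Leaving out any 1 array left 12 to 15 male-biased and 10 to 13 female-biased genes. The mean level of the male-biased list, relative to the mean of WT on chow, was -0.277, 0.163 and 0.115 in WT mice fed chow, -0.759, -0.819 and -0.792 in WT mice fed HFD, -0.291, -0.235 and -0.642 in KO mice fed chow, and 0.442, 0.280 and 0.357 in KO mice fed HFD. The female-biased list read 0.210, -0.066 and -0.144 in WT mice fed chow, 0.468, 0.561 and 0.737 in WT mice fed HFD, 0.296, 0.574 and 0.629 in KO mice fed chow, and -0.244, -0.476 and -0.502 in KO mice fed HFD. Thus WT mice on HFD and KO mice on chow lay on the same side of WT on chow for both lists, and KO mice on HFD lay on the other side. The first WT mouse on chow overlapped KO mice on chow in the male-biased list. Male-biased members without a called interaction included Mup20 (0.11 ± 0.11), a urinary pheromone-binding protein gene, and Cyp2d9 (0.47 ± 0.18). Female-biased ones included Lepr, the leptin receptor gene (1.58 ± 0.94, adjusted p = 0.431).

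**Figure D4:**
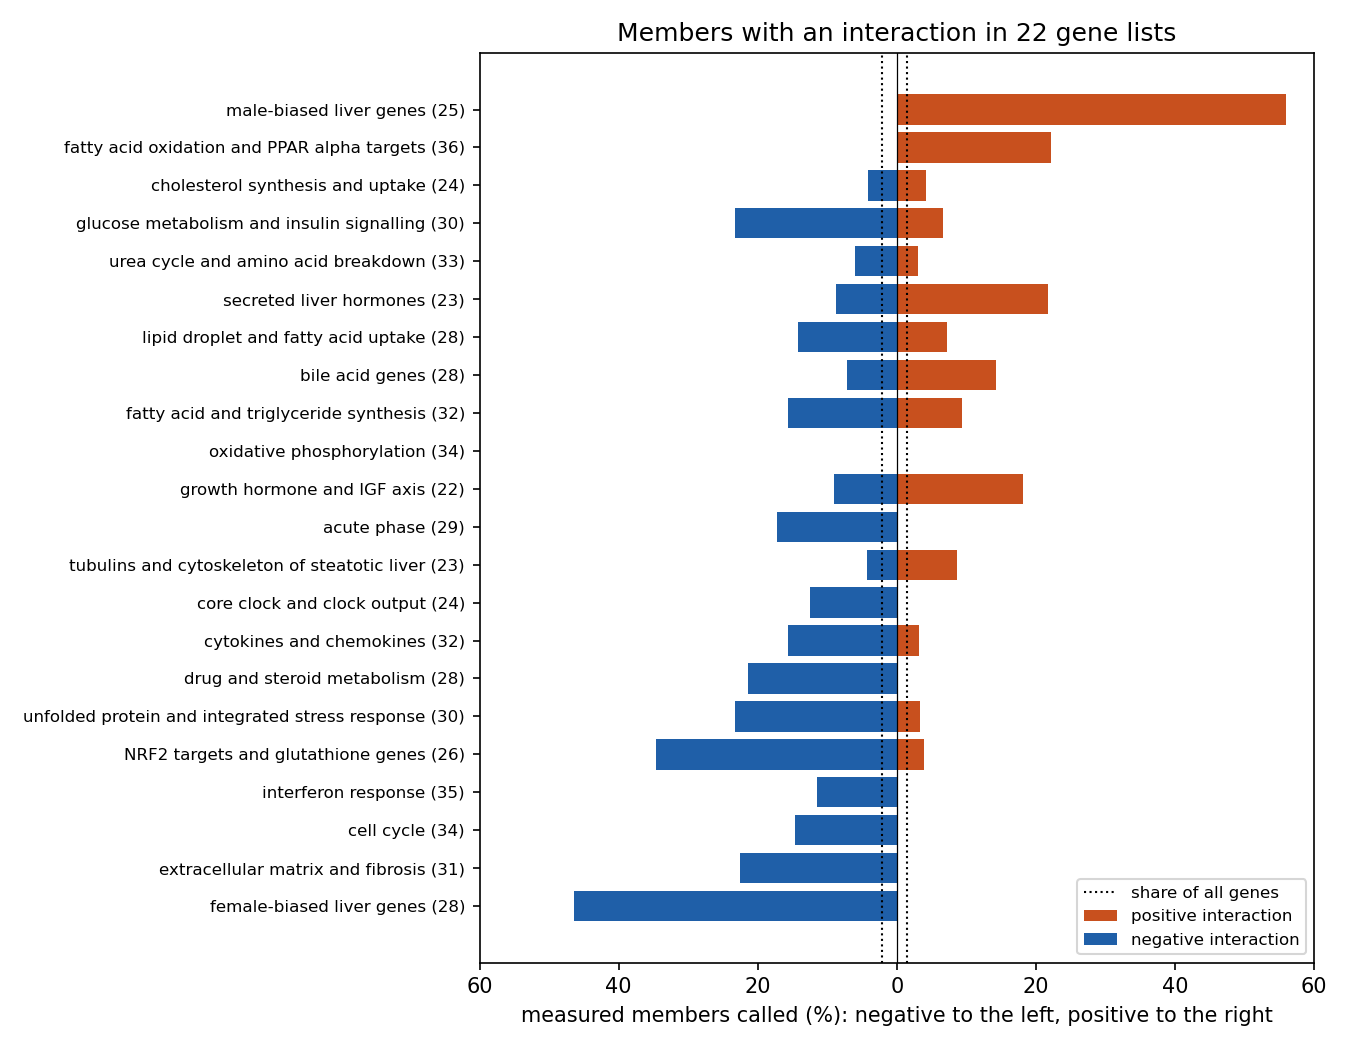
Share of the measured members (in parentheses) of 22 gene lists that passed with a positive (right, orange) or negative (left, blue) interaction, with dotted lines at the shares of all genes, 1.43% and 2.1%. Male-biased genes and genes of fatty acid oxidation lie to the right alone, and female-biased, matrix, cell cycle and interferon genes to the left alone.

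Growth hormone and insulin-like growth factor genes gave 4 positive and 2 negative members of 22 (all genes: 1.43% and 2.1%), with a median of -0.07 (-0.11 to -0.0332 with 1 array left out). Igfbp2, which binds insulin-like growth factors, read 12.20, 12.15 and 11.98 in WT mice fed chow, 10.32, 9.99 and 9.85 in WT mice fed HFD, 12.27, 12.17 and 12.19 in KO mice fed chow, and 11.95, 12.16 and 12.11 in KO mice fed HFD. The 3 WT HFD mice were far below the other 9 mice, which overlapped. Its interaction was 1.92 ± 0.17 (limma adjusted p = 0.000111). Socs2, a feedback inhibitor of growth hormone signalling and target of STAT5, read 10.68, 10.55 and 11.13 in WT mice fed chow, 8.24, 8.64 and 9.25 in WT mice fed HFD, 11.47, 11.07 and 11.11 in KO mice fed chow, and 10.99, 11.02 and 10.86 in KO mice fed HFD. It too was low in WT mice on HFD alone (1.82 ± 0.31, adjusted p = 0.00935). Igfbp1 (2.20 ± 0.43) and Egfr, the epidermal growth factor receptor gene (1.47 ± 0.17), shared this pattern, with WT responses of -2.23 and -1.13. The negative members were Cux2 and the corticosteroid carrier gene Serpina6 (-1.40 ± 0.28), whose call was lost without WT HFD mouse 3 or KO HFD mouse 2 (adjusted p of up to 0.0531).

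Genes of drug and steroid metabolism passed on the negative side alone, 6 of 28 (2.1% of all genes were negative), with a median of -0.28. Leaving out 1 array gave 4 to 7 members and a median of -0.35 (without KO HFD mouse 1) to -0.13 (without KO HFD mouse 2). Besides Cyp2a5 these were Cyp2b10, the classic target of CAR (-3.67 ± 0.66), the sulfotransferase gene Sult1d1 (-1.38 ± 0.16), Cyp2c29 (-1.07 ± 0.21), Cyp3a11 (-0.95 ± 0.21), the classic target of PXR, and the efflux pump gene Abcc3 (-0.91 ± 0.21). Cyp2b10 rose by 2.58 in WT, from 5.78 to 8.36, and stood at 6.03 and 4.94 in KO. In KO the response of Cyp2c29 was -1.03 and that of Cyp3a11 -2.05, both called, whereas in WT they were 0.04, not called, and -1.10, called. The call of Cyp3a11 was lost without WT chow mouse 3, WT HFD mouse 2 or 3, any KO chow mouse, or KO HFD mouse 2 or 3 (adjusted p of up to 0.0728), and that of Abcc3 without any array other than WT chow mouse 2 and KO HFD mouse 1 (up to 0.0784). Other cytochromes outside the list were Cyp2c38 (-2.56 ± 0.46) and Cyp3a59 (-1.79 ± 0.36).

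NRF2 targets and glutathione genes gave 9 negative members and 1 positive of 26 (all genes: 2.1% and 1.43%), with a median of -0.48, and 7 to 10 negative ones when 1 array was left out. Called or not, 17 estimates were negative and 9 positive. Gsta3, a glutathione transferase gene, read 11.31, 11.52 and 11.56 in WT mice fed chow, 11.93, 12.07 and 12.25 in WT mice fed HFD, 11.26, 11.54 and 11.49 in KO mice fed chow, and 10.91, 10.46 and 10.74 in KO mice fed HFD. HFD raised it in WT, and KO mice on HFD were below the other 9 mice. Its interaction was -1.36 ± 0.19 (limma adjusted p = 0.00215), with 0.63 in WT and -0.73 in KO, the second not called (adjusted p = 0.0506). Nqo1, the quinone reductase gene used as a marker of NRF2 activity, read 7.62, 7.42 and 7.48 in WT mice fed chow, 7.88, 7.82 and 8.13 in WT mice fed HFD, 7.44, 7.59 and 8.02 in KO mice fed chow, and 6.92, 6.89 and 6.95 in KO mice fed HFD. KO mice on HFD lay close together below all others, and KO chow and WT HFD mice overlapped. The interaction of Nqo1 was -1.20 ± 0.19 (0.00623). The further negative members were Mgst3 (-1.30 ± 0.17), Gstt3 (-2.56 ± 0.36), Gstt1 (-0.90 ± 0.17), Gsta4 (-1.13 ± 0.22), Gstm1 (-0.77 ± 0.15), Gstm3 (-2.46 ± 0.50) and Gstm2 (-1.24 ± 0.29). The call of Gstm3 was lost without KO HFD mouse 2 (adjusted p = 0.0514), and that of Gstm2 without any array other than WT chow mouse 1 and KO HFD mouse 1, at up to 0.0951. The positive member was Gstp1 (0.84 ± 0.16), a transferase gene that belongs to the male-biased list as well, and 2 were positive without KO HFD 1. The mean level of the list lay between -0.52 and -0.413 in KO on HFD, between 0.133 and 0.261 in WT on HFD and between -0.217 and 0.047 on chow, relative to WT on chow.

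Genes of fatty acid and triglyceride synthesis went both ways, with 3 positive and 5 negative of 32 (all genes: 1.43% and 2.1%) and a median of -0.03 (-0.0683 to -0.00403 with 1 array left out). Thrsp, which promotes lipogenesis, read 6.73, 6.62 and 6.62 in WT mice fed chow, 9.78, 9.74 and 10.35 in WT mice fed HFD, 6.78, 6.99 and 6.86 in KO mice fed chow, and 6.65, 6.23 and 5.80 in KO mice fed HFD. All 3 WT mice on HFD were far above every other mouse, and KO mice on HFD overlapped WT mice on chow. Its interaction was -3.94 ± 0.28 (limma adjusted p = 2.26e-05). The other negative members were Lpin1, a phosphatidate phosphatase gene that is also active in the nucleus (-3.68 ± 0.65), Aacs, which activates acetoacetate for lipid synthesis (-2.43 ± 0.22), Dgat2, the last step of triglyceride synthesis (-0.64 ± 0.10), and Mogat1 (-1.17 ± 0.29), an acyltransferase gene whose call was lost without any array other than WT HFD mouse 1 and 2 (adjusted p of up to 0.0974). All 5 rose in WT. The positive members were the elongase genes Elovl2 (0.87 ± 0.12), Elovl3 (1.41 ± 0.34) and Elovl5 (0.49 ± 0.12), and the count of 3 dropped to 1 or 2 when an array was left out. The call of Elovl3 held without WT chow mouse 1 and KO chow mouse 1 and was lost without any other array (up to 0.104), and that of Elovl5 held without KO HFD mouse 1 alone (up to 0.114). The desaturase gene Scd1 read 13.52, 13.63 and 13.46 in WT mice fed chow, 13.64, 13.63 and 13.67 in WT mice fed HFD, 13.25, 13.31 and 13.45 in KO mice fed chow, and 12.47, 11.81 and 10.52 in KO mice fed HFD. KO mice on HFD lay below the others and spread widely, and the interaction of -1.84 ± 0.48 did not pass (0.0595). Srebf1, which encodes SREBP-1c, stood at -0.60 ± 0.18 (0.0966) and the fatty acid synthase gene Fasn at -0.56 ± 0.20 (0.166).

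Lipid droplet and fatty acid uptake genes also split, 2 positive and 4 negative of 28 (all genes: 1.43% and 2.1%), with a median of -0.01 that changed sign when some arrays were left out (-0.07 to 0.08). Fabp5, a fatty acid-binding protein gene of macrophages and stressed hepatocytes, read 7.74, 7.29 and 6.88 in WT mice fed chow, 6.42, 6.23 and 6.60 in WT mice fed HFD, 6.81, 6.17 and 6.51 in KO mice fed chow, and 9.76, 8.87 and 8.76 in KO mice fed HFD. KO mice on HFD were above all others, and WT mice on HFD were below WT mice on chow. Its interaction was 3.52 ± 0.38 (limma adjusted p = 0.000465). Cd36, a fatty acid transporter, read 10.93, 10.16 and 9.96 in WT mice fed chow, 11.94, 12.10 and 12.06 in WT mice fed HFD, 10.64, 10.15 and 10.57 in KO mice fed chow, and 9.94, 9.69 and 9.75 in KO mice fed HFD. WT mice on HFD were above all others and KO mice on HFD below all others. Its interaction was -2.34 ± 0.29 (0.0013). Vldlr, a lipoprotein receptor gene, changed in opposite directions, by 0.87 in WT and -1.05 in KO (-1.92 ± 0.23). The droplet coat genes Plin4 (-2.06 ± 0.27) and Plin2 (0.53 ± 0.10) differed in sign. Cidea, a droplet fusion gene, read 4.67, 5.14 and 4.88 in WT mice fed chow, 6.44, 8.06 and 8.66 in WT mice fed HFD, 4.81, 4.92 and 5.16 in KO mice fed chow, and 4.84, 5.08 and 4.97 in KO mice fed HFD. It was near background outside WT on HFD, and its interaction of -2.82 ± 0.57 was lost without WT HFD mouse 2 or KO chow mouse 3 (adjusted p of up to 0.0528). Cidec (0.75 ± 0.57, adjusted p = 0.551) and Pparg, the receptor that drives lipid storage (-0.51 ± 0.69, 0.773), did not pass.

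Fatty acid oxidation genes and PPAR alpha targets passed on the positive side alone, 8 of 36 (1.43% of all genes), with a median of 0.24, and all 8 fell in WT. Ehhadh, the bifunctional enzyme of peroxisomal oxidation, read 13.46, 13.37 and 13.27 in WT mice fed chow, 12.29, 12.26 and 12.28 in WT mice fed HFD, 13.17, 12.96 and 13.24 in KO mice fed chow, and 13.27, 13.42 and 13.45 in KO mice fed HFD. The WT mice on HFD lay well below the other 9, among which KO mice on chow were slightly the lowest. Its interaction was 1.35 ± 0.13 (limma adjusted p = 0.000244). Cyp4a31, a fatty acid hydroxylase gene, read 12.94, 12.996 and 12.83 in WT mice fed chow, 11.07, 11.37 and 11.11 in WT mice fed HFD, 12.90, 12.88 and 12.96 in KO mice fed chow, and 13.22, 12.68 and 13.09 in KO mice fed HFD. The same 3 mice were low, and the interaction was 1.82 ± 0.18 (0.000271). Fgf21, the fasting and stress hormone gene, read 8.68, 8.04 and 8.34 in WT mice fed chow, 6.61, 6.93 and 6.81 in WT mice fed HFD, 8.13, 8.37 and 8.53 in KO mice fed chow, and 8.36, 8.22 and 9.62 in KO mice fed HFD. It was low in WT mice on HFD and highest in 1 KO mouse on HFD, and its interaction of 1.96 ± 0.42 was lost without WT chow mouse 1 or 3, any WT HFD mouse, or KO chow mouse 1 or 2 (adjusted p of up to 0.0625). Acaa1b (0.78 ± 0.13) and Acot1 (1.41 ± 0.26) kept their calls without any 1 array, while Acot2 (1.23 ± 0.27) lost its call without WT chow mouse 2 or 3, WT HFD mouse 1 or 3 or KO chow mouse 1 or 2 (up to 0.0676). Hadha (0.48 ± 0.11) and Hadhb (0.83 ± 0.20), subunits of the mitochondrial trifunctional protein, kept theirs only without KO HFD mouse 1 and only without one of WT chow mouse 3, WT HFD mouse 2 and KO chow mouse 3, respectively (up to 0.103 and 0.102). The count dropped to 4 without WT HFD mouse 1, WT HFD mouse 3 or KO chow mouse 2, and to 5 without KO chow mouse 1 or any WT chow mouse. With trend and robust settings 14 members passed. Not called were Cpt1a, the entry step of mitochondrial oxidation (0.38 ± 0.11, adjusted p = 0.0939), Ppargc1a (0.92 ± 0.26, 0.0759) and Ppara itself (-0.13 ± 0.12, 0.64).

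Bile acid genes gave 4 positive and 2 negative of 28 (all genes: 1.43% and 2.1%), with a median of -0.02 that changed sign when some arrays were left out (-0.06 to 0.05). Besides Cyp7b1 the positive members were the sterol hydroxylase gene of the cholic acid branch, Cyp8b1 (0.97 ± 0.15), the uptake transporter gene Slco1a1 (1.77 ± 0.26) and the phospholipid export gene Abcb4 (0.68 ± 0.14), lost without WT HFD mouse 2 or 3, KO chow mouse 2 or 3, or KO HFD mouse 2 (adjusted p of up to 0.0605). Lists share members: Cyp7b1, Slco1a1 and Elovl3 are also on the male-biased list and Cyp2b10 on the female-biased list, so these lists are not independent. Akr1d1, the reductase of the bile acid pathway, read 9.82, 9.78 and 9.62 in WT mice fed chow, 10.50, 10.60 and 10.50 in WT mice fed HFD, 9.998, 10.38 and 10.17 in KO mice fed chow, and 9.41, 8.22 and 8.36 in KO mice fed HFD. KO mice on HFD lay below all others, and its interaction was -2.31 ± 0.34 (limma adjusted p = 0.00311). The other negative member was Abcc3, and 1 negative member was left without any single array other than WT chow mouse 1, WT chow mouse 2 and KO HFD 1. Cyp7a1, the rate-limiting enzyme of bile acid synthesis, stood at 0.90 ± 0.34 (0.183). Of 24 genes of cholesterol synthesis and uptake 8.33% passed, against 3.53% of all genes. These were Hsd17b7 with 1.15 ± 0.13 and the sterol exporter gene Abcg5 with -0.74 ± 0.17, the second held without KO HFD mouse 1 and lost without any other array (up to 0.0868).

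Genes of glucose metabolism and insulin signalling gave 2 positive and 7 negative of 30 (all genes: 1.43% and 2.1%). The list's median of 0.06 ranged from 0.0314 to 0.113 with 1 array left out and turned negative (-0.0027) with arrays centred on their medians. Irs2, an insulin receptor substrate gene, read 9.80, 8.74 and 9.97 in WT mice fed chow, 7.14, 7.07 and 7.44 in WT mice fed HFD, 8.80, 8.13 and 8.64 in KO mice fed chow, and 9.69, 8.86 and 9.07 in KO mice fed HFD. Mice of the WT HFD group were the lowest, and KO mice on HFD lay above KO mice on chow without overlap, a difference of 0.68 that was not called. Its interaction was 2.97 ± 0.43 (limma adjusted p = 0.00298). The negative members were Khk, the fructokinase gene (-1.34 ± 0.17), Slc2a2, the GLUT2 transporter gene (-0.81 ± 0.11), Pfkfb3 (-1.71 ± 0.19), Ppp1r3b, a glycogen-targeting phosphatase subunit (-2.51 ± 0.39), Pygl, the liver glycogen phosphorylase (-0.85 ± 0.15), the pyruvate kinase gene Pklr (-0.93 ± 0.20) and Pik3r1, a regulatory subunit of PI3 kinase in insulin signalling (-0.84 ± 0.20). All 7 rose in WT on HFD. The positive members were Irs2 and Igfbp1, and 4 were positive without KO chow 1. Pklr lost its call without any WT HFD mouse, KO chow mouse 2 or 3, or KO HFD mouse 3 (adjusted p of up to 0.0694), and Pik3r1 without any array other than WT chow mouse 2 and KO chow mouse 1 (up to 0.106). The gluconeogenic genes Pck1 (0.28 ± 0.11, adjusted p = 0.188) and G6pc (0.46 ± 0.14, 0.109) did not pass.

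Of 24 core clock and clock output genes 3 passed, all negative (2.1% of all genes were negative), with a median of -0.17. With 1 array left out the median ranged from -0.34 (without WT chow mouse 3) to -0.0222 (without KO HFD mouse 3). Ciart, a repressor of CLOCK and BMAL1 whose promoter held 3 E-boxes, read 6.52, 7.14 and 7.38 in WT mice fed chow, 9.50, 9.80 and 10.04 in WT mice fed HFD, 7.51, 8.44 and 7.49 in KO mice fed chow, and 7.48, 6.80 and 6.41 in KO mice fed HFD. The 3 WT HFD mice lay well above the other 9, and KO mice on chow lay above both WT mice on chow and KO mice on HFD by a small margin. Its interaction was -3.69 ± 0.45 (limma adjusted p = 0.000982). Usp2, a ubiquitin protease gene with a daily rhythm, gave -2.84 ± 0.54 (0.0144), and Nampt, the NAD salvage gene, -0.80 ± 0.16, lost without WT HFD mouse 2, KO chow mouse 3 or KO HFD mouse 2 (up to 0.0547). Members of the clock itself did not pass with all 12 arrays: Arntl, which encodes BMAL1, stood at 0.95 ± 0.41 (0.252), Clock at 0.48 ± 0.13 (0.0679), Nr1d1 at 0.74 ± 0.25, Dbp at -0.59 ± 0.37 and Per1 at -0.55 ± 0.37. A positive member passed in some alternatives: Nr1d1 without WT chow mouse 1 (0.95, limma adjusted p = 0.031), Arntl without WT chow mouse 2 (1.33, 0.0331), and Clock without WT HFD mouse 1 (0.57, 0.0355), with trend and robust settings (0.0174) and among genes above the median signal (0.0222). Rgs16, a regulator of G protein signalling that responds to fasting and daily time, read 7.69, 9.11 and 6.22 in WT mice fed chow, 11.16, 11.50 and 11.73 in WT mice fed HFD, 8.41, 8.997 and 8.49 in KO mice fed chow, and 6.74, 7.73 and 9.14 in KO mice fed HFD. It was high in WT mice on HFD, and its interaction of -4.55 ± 0.91 was lost without KO chow mouse 2 (0.0507). Time of collection and group cannot be told apart with the labels used here.

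Stress genes of the unfolded protein response and the integrated stress response gave 1 positive and 7 negative of 30 (all genes: 1.43% and 2.1%), with a median of -0.47. Creld2, a chaperone-like gene of the endoplasmic reticulum, read 10.34, 10.86 and 10.88 in WT mice fed chow, 11.60, 11.99 and 12.04 in WT mice fed HFD, 9.99, 10.22 and 10.10 in KO mice fed chow, and 9.92, 9.88 and 10.18 in KO mice fed HFD. All 3 WT mice on HFD were above all others and KO mice did not separate by diet. Its interaction was -1.30 ± 0.23 (limma adjusted p = 0.00977). Herpud1, a gene of protein disposal from the endoplasmic reticulum (-1.41 ± 0.27), and Ddit4, an inhibitor of mTOR (-2.26 ± 0.29), also kept their calls without any 1 array. The remaining 4 did not: Hyou1 (-0.99 ± 0.20) lost its call without WT HFD mouse 2, KO chow mouse 2 or KO HFD mouse 2, Ddit3, which encodes CHOP (-1.49 ± 0.30), without WT chow mouse 3, WT HFD mouse 2 or 3, or KO chow mouse 3, Hspa5, the main chaperone (-1.03 ± 0.24), without any array other than WT chow mouse 2 and KO HFD mouse 3, and Dnajb9 (-0.93 ± 0.23) without any other than WT HFD mouse 1, KO chow mouse 1 and KO HFD mouse 3. The negative count dropped to 3 without WT HFD mouse 2 and to 4 without WT HFD mouse 3, KO chow mouse 2, KO chow mouse 3 or KO HFD 2. The positive member was the transcription factor gene Atf5 (1.18 ± 0.18, adjusted p = 0.0051), and 3 members were positive without WT chow 2. Called or not, 24 estimates were negative and 6 positive. The largest in size was positive, that of Asns (2.92 ± 0.85), which did not pass (limma adjusted p = 0.09). Members of this list therefore did not all go the same way.

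Acute phase genes gave 5 negative members and 0 positive of 29 (all genes: 2.1% and 1.43%), with a median of -0.11 (-0.185 without KO HFD mouse 1 to -0.0502 without WT chow mouse 2). Hamp2, a hepcidin gene of mouse liver, read 9.02, 9.33 and 9.31 in WT mice fed chow, 11.32, 11.13 and 11.67 in WT mice fed HFD, 8.94, 10.49 and 10.22 in KO mice fed chow, and 6.74, 7.18 and 6.42 in KO mice fed HFD. WT mice on HFD were the highest and KO mice on HFD the lowest, without overlap with any other group, and KO mice on chow spread around the WT chow level. The responses of 2.15 in WT and -3.10 in KO were both called, with an interaction of -5.26 ± 0.46 (limma adjusted p = 0.000111). Orm3, an orosomucoid gene, read 4.48, 5.62 and 6.17 in WT mice fed chow, 9.36, 9.22 and 9.93 in WT mice fed HFD, 6.96, 6.91 and 6.11 in KO mice fed chow, and 6.36, 5.74 and 5.97 in KO mice fed HFD. The WT mice on HFD were above all others (-4.72 ± 0.53, adjusted p = 0.000545), and Orm2 gave -2.92 ± 0.52. Steap4, a metalloreductase gene induced by inflammation, gave -2.19 ± 0.27 (0.00104). Saa4 gave -0.92 ± 0.22 and lost its call without WT chow mouse 1 or 3, WT HFD mouse 1, 2 or 3, KO chow mouse 2 or 3 or KO HFD mouse 2 (up to 0.096). Saa3, a serum amyloid gene, read 8.29, 7.79 and 7.85 in WT mice fed chow, 9.88, 9.53 and 9.07 in WT mice fed HFD, 7.998, 7.80 and 8.06 in KO mice fed chow, and 11.88, 10.45 and 10.80 in KO mice fed HFD. It rose in both genotypes, by 1.51 in WT and 3.09 in KO, and was highest in KO mice on HFD, but its positive estimate of 1.58 ± 0.44 did not pass (0.0744). Saa3 did pass without KO HFD mouse 2 (1.87, limma adjusted p = 0.0389), with the replicate number as a block (0.0322) and with dim genes left out (0.0355), and Itih3, an inter-alpha-trypsin inhibitor gene, passed as positive with trend and robust settings (0.47, 0.018) or with dim genes left out (0.0316).

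Markers of recruited and lipid-associated macrophages gave 5 negative members and 1 positive of 13 (all genes: 2.1% and 1.43%), with a median of -0.70. In whole liver, fewer cells of a type and less RNA per cell cannot be told apart. Mmp12, an elastase gene of macrophages, read 5.82, 5.59 and 5.68 in WT mice fed chow, 8.03, 7.66 and 7.46 in WT mice fed HFD, 5.76, 5.71 and 5.51 in KO mice fed chow, and 5.91, 6.09 and 5.96 in KO mice fed HFD. Mice of the WT HFD group were above the other 9 mice. The WT response of Mmp12 was 2.02, the KO response 0.32 and the interaction -1.70 ± 0.19 (limma adjusted p = 0.000545). Gpnmb, a glycoprotein gene of lipid-loaded macrophages, read 5.39, 5.52 and 5.05 in WT mice fed chow, 7.75, 7.21 and 6.71 in WT mice fed HFD, 5.51, 5.45 and 5.64 in KO mice fed chow, and 5.60, 5.87 and 5.97 in KO mice fed HFD. The same 3 mice were high, and the interaction was -1.62 ± 0.30 (0.0135). Clec7a (-1.39 ± 0.32), Lgals3 (-0.52 ± 0.12) and Trem2 (-0.93 ± 0.23) passed with weaker support: Trem2 kept its call only without WT HFD mouse 3, Clec7a only without WT chow mouse 1 or 2, and Lgals3 only without WT chow mouse 1 or KO HFD 1. The negative count was 3 without WT chow mouse 2 or KO HFD mouse 1, and 2 without WT chow mouse 3, WT HFD mouse 1 or 2, any KO chow mouse, or KO HFD mouse 2 or 3. The positive member was Fabp5, and 2 were positive without WT chow 2. The mean level of the 13 markers was 6.47 to 6.74 in WT on chow, 7.08 to 7.38 in WT on HFD, 6.44 to 6.53 in KO on chow and 6.73 to 6.80 in KO on HFD, and no marker was at 0. Of 13 markers of resident Kupffer cells 0 passed (all genes: 3.53%), with a median of -0.32 (-0.43 to -0.19 with 1 array left out) and 3 at an unadjusted p under 0.05 (all genes: 17.3%). Called or not, 12 of the 13 estimates were negative, against 11192 of 22180 genes. Clec4f, which marks Kupffer cells alone, was the 1 positive estimate, at 0.02 ± 0.18 (0.973). Adgre1, which encodes a common surface antigen of macrophages, stood at -0.65 ± 0.28 (0.253).

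Cytokine and chemokine genes gave 1 positive and 5 negative of 32 (all genes: 1.43% and 2.1%), with a median of -0.21. Il15 (-0.78 ± 0.15, limma adjusted p = 0.0159) kept its call without any 1 array. Vcam1 (-1.30 ± 0.28), Ccl3 (-1.24 ± 0.28), Lgals3 and Cxcl1 (-0.89 ± 0.22) did not, and the negative count was 3 without KO chow mouse 2 or KO HFD mouse 3, 2 without WT HFD mouse 2 or 3, KO chow mouse 1 or KO HFD mouse 2, and 1 without WT chow mouse 2 or 3, WT HFD mouse 1 or KO chow 3. Il1b went against them and read 8.89, 7.55 and 8.76 in WT mice fed chow, 5.94, 6.07 and 6.05 in WT mice fed HFD, 8.003, 7.99 and 8.37 in KO mice fed chow, and 7.83, 8.54 and 7.38 in KO mice fed HFD. The 3 WT HFD mice were the lowest, and the positive interaction of 2.17 ± 0.46 was lost without WT chow mouse 1 or 3, any WT HFD mouse, KO chow mouse 1 or 2, or KO HFD mouse 2 (up to 0.0655). Ccl2, which draws in monocytes, stood at -1.01 ± 0.29 (0.09) and Tnf at -0.28 ± 0.15 (0.374). Interferon response genes passed on the negative side alone, 4 of 35 (2.1% of all genes were negative), with a median of -0.49: Irf8 (-0.78 ± 0.14), Gbp7 (-1.25 ± 0.23), Gbp3 (-1.35 ± 0.26) and Irgm1 (-0.57 ± 0.12). Irgm1 lost its call without WT chow mouse 3, WT HFD mouse 1 or 2, KO chow mouse 3 or KO HFD mouse 3 (up to 0.0695). More passed without KO chow mouse 1 or KO HFD mouse 2, up to 8. The estimates of 31 of the 35 were negative, against 11192 of 22180 genes.

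Genes of extracellular matrix and fibrosis passed on the negative side alone, 7 of 31 (2.1% of all genes were negative), with a median of -0.53, and 5 to 7 passed when 1 array was left out. Col1a1, the main fibrillar collagen gene, read 7.16, 7.25 and 6.89 in WT mice fed chow, 8.77, 8.25 and 8.52 in WT mice fed HFD, 7.41, 7.42 and 7.41 in KO mice fed chow, and 7.34, 7.58 and 7.30 in KO mice fed HFD. All 3 WT mice on HFD were above all others, and KO mice on the 2 diets overlapped. The WT response was 1.42, the KO response was 0.00, and the interaction was -1.42 ± 0.19 (limma adjusted p = 0.00192). Col3a1 (-1.45 ± 0.20), Col14a1 (-0.86 ± 0.14) and Timp1, an inhibitor of matrix proteases (-1.34 ± 0.24), were likewise highest in WT on HFD, at mean levels of 8.20, 9.57 and 6.48 against at most 7.08, 8.83 and 5.20 in the other groups. Col1a2 (-0.90 ± 0.20) and Mmp2 (-1.23 ± 0.30) passed less firmly: Col1a2 was lost without any WT chow or KO HFD mouse or KO chow mouse 2 or 3 (up to 0.0734), and Mmp2 without WT chow mouse 1 or 3, WT HFD mouse 3, KO chow mouse 2 or 3, or any KO HFD mouse (up to 0.106). The 7th member was Mmp12. Of 10 stellate cell markers 1 passed, Lrat, which stores vitamin A (-0.84 ± 0.14, adjusted p = 0.00857), while Des stood at -0.34 ± 0.21 and Pdgfrb at -0.22 ± 0.17. Mean levels of the stellate markers were 8.55 to 8.73 in WT on chow, 8.68 to 8.79 in WT on HFD, 8.63 to 8.72 in KO on chow and 8.63 to 8.68 in KO on HFD.

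Cell cycle genes passed on the negative side alone, 5 of 34 (2.1% of all genes were negative), with a median of -0.49. Ccnb2, a mitotic cyclin gene, read 7.23, 6.61 and 7.20 in WT mice fed chow, 8.23, 8.09 and 8.07 in WT mice fed HFD, 6.74, 6.94 and 7.05 in KO mice fed chow, and 6.94, 6.71 and 6.66 in KO mice fed HFD. WT mice on HFD were above the other 9. The interaction of Ccnb2 was -1.25 ± 0.22 (limma adjusted p = 0.00969). Mki67, the common marker of dividing cells, gave -0.76 ± 0.15, the ribonucleotide reductase gene Rrm2 -0.86 ± 0.17, Cdc20 -0.67 ± 0.13 and the spindle motor gene Kif11 -0.70 ± 0.14, the last lost without WT chow mouse 3, WT HFD mouse 2, KO chow mouse 2 or 3 or KO HFD mouse 2 (up to 0.0606). Cdk1 stood at -0.74 ± 0.22 (0.0899). The estimates of 31 of 34 members were negative. The cell type of these transcripts was not tested.

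**Figure D5:**
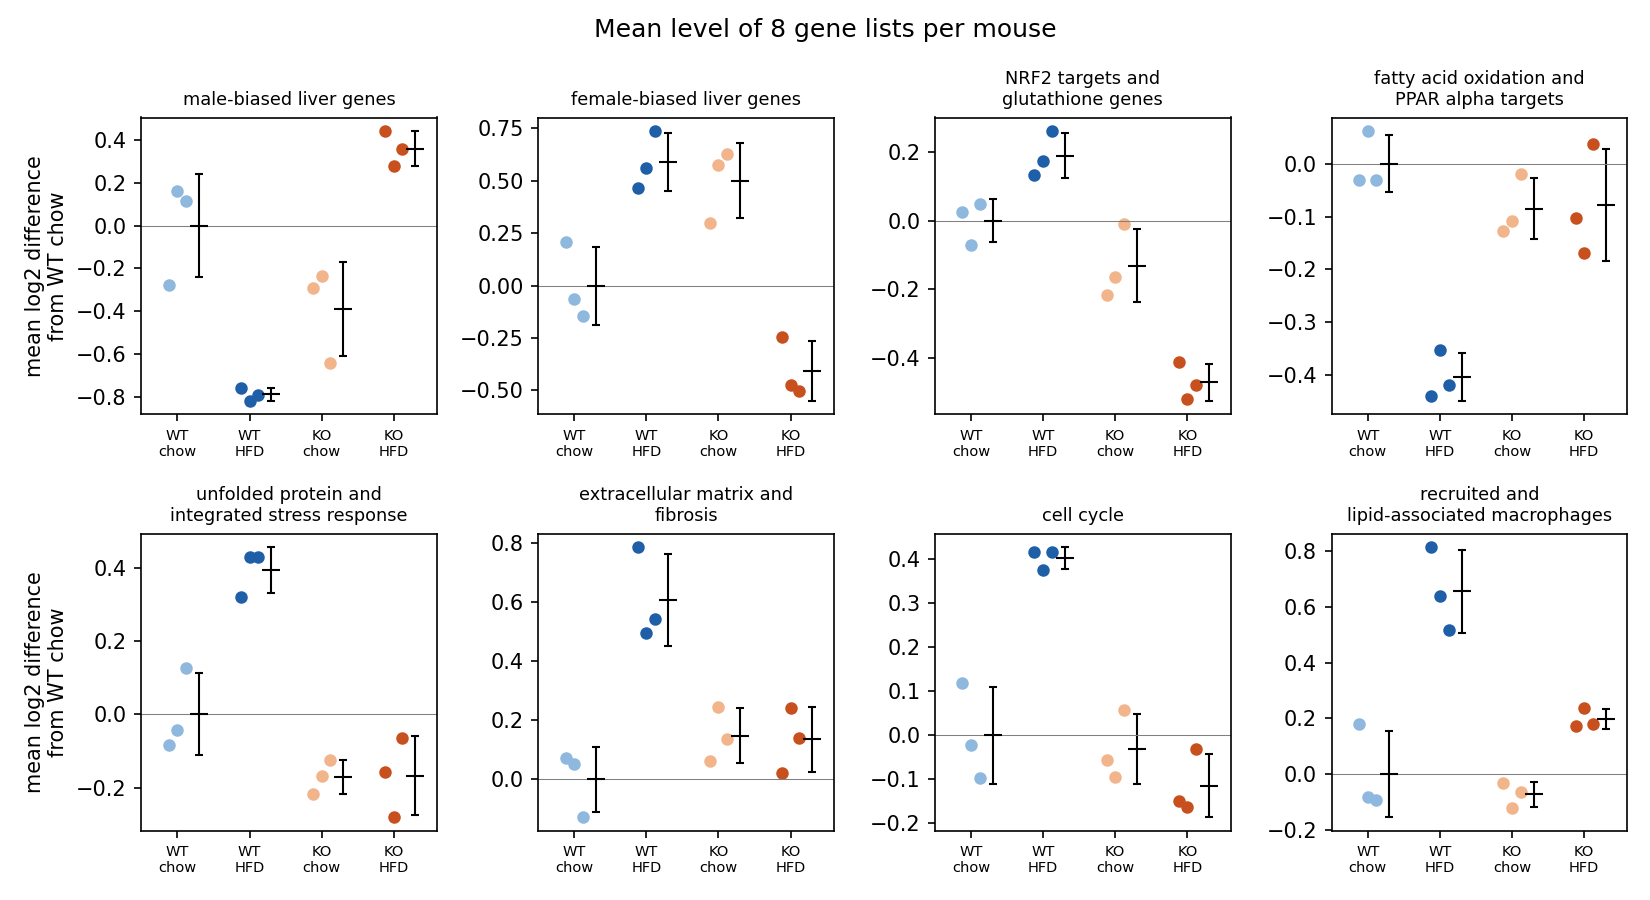
Mean level of the members of 8 gene lists in each mouse (vertical axis, log2 difference from the mean of WT on chow) for the 4 groups (horizontal axis), with the mean and standard deviation of 3 mice in black. Lists of oxidation, stress response, matrix, cell cycle and macrophage genes stand apart in WT on HFD, the mean of NRF2 targets and glutathione genes is lowest in KO on HFD, and the sex-biased lists move in opposite directions in the 2 genotypes.

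Several genes outside the lists had called interactions as well, and of these Sprr1a and Hnmt were among the 5 genes with the smallest limma p. Sprr1a, a small proline-rich protein gene induced by injury, read 5.70, 5.74 and 5.67 in WT mice fed chow, 8.62, 8.30 and 8.59 in WT mice fed HFD, 5.90, 5.98 and 5.92 in KO mice fed chow, and 6.23, 5.91 and 6.38 in KO mice fed HFD. It was high in WT mice on HFD (-2.56 ± 0.17, limma adjusted p = 2.1e-05). Hnmt, which inactivates histamine, read 7.79, 7.74 and 8.02 in WT mice fed chow, 9.39, 9.50 and 9.57 in WT mice fed HFD, 7.94, 8.28 and 8.07 in KO mice fed chow, and 7.37, 7.24 and 7.38 in KO mice fed HFD. The response was 1.64 in WT and -0.77 in KO, both called, with an interaction of -2.41 ± 0.15 (1.67e-05). Serpinb1a, a protease inhibitor gene, also changed in opposite directions, by 1.19 in WT and -1.24 in KO (-2.42 ± 0.30). Ildr2, linked to hepatic lipid handling, gave -2.91 ± 0.26 (0.000111) and Tbc1d30 2.30 ± 0.46 (0.0184). Of the 9 genes that rose in KO alone, the largest after Moxd1, Fabp5, Ugt2b37 and Selenbp2 were the carboxylesterase gene Ces4a, at 1.33 in KO and -0.04 in WT, the Wnt inhibitor gene Wif1, at 1.12 and 0.03, and the laminin gene Lamb3, at 0.92 and -0.16. Ces1g, a carboxylesterase gene, had a large interaction (-2.74 ± 0.66) that passed in neither genotype alone and was lost without any array other than KO chow mouse 1 and KO HFD mouse 2 (up to 0.0989).

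In the remaining pathway lists the share of called members differed widely, against 3.53% of all genes. It was 0% for oxidative phosphorylation, 9.09% for the urea cycle and amino acid breakdown, 13.04% for cytoskeletal genes and 30.43% for secreted hormones. Of 34 genes of oxidative phosphorylation 0 passed in either direction by limma, with a median of -0.05 (-0.0842 to -0.0181 with 1 array left out) and 3 members at an unadjusted p under 0.05 (all genes: 17.3%). The succinate dehydrogenase genes Sdhb (-0.45, adjusted p = 0.0289) and Sdha (-0.35, 0.034) passed as negative with trend and robust settings, and Sdhb also among genes above the median signal (0.0287). Nnt, which varies between C57BL/6 substrains, read 9.81, 10.75 and 10.78 in WT mice fed chow, 10.76, 10.76 and 10.75 in WT mice fed HFD, 9.69, 10.48 and 10.46 in KO mice fed chow, and 10.19, 9.39 and 10.30 in KO mice fed HFD. The WT mice on HFD lay together and the other groups spread widely and overlapped, and its interaction of -0.56 ± 0.42 did not pass (0.551). Of 33 genes of the urea cycle and amino acid breakdown 1 was positive and 2 were negative: Csad, of taurine synthesis (2.16 ± 0.23), Prodh, of proline breakdown (-1.30 ± 0.18), and the transaminase gene Gpt (-0.66 ± 0.15), lost without any array other than WT chow mouse 1 and KO chow mouse 1 (up to 0.0914). Without WT chow mouse 2 or WT HFD mouse 3 more than 1 gene of this list was positive, up to 3. Of 23 secreted liver hormones 5 were positive and 2 negative, among them Inhbc (0.93 ± 0.16) and Inhbe (0.87 ± 0.20), subunits of activins, the second lost without WT chow mouse 1 or 3, WT HFD mouse 1, 2 or 3, KO chow mouse 2 or 3 or KO HFD mouse 2 or 3 (up to 0.0906). The other called hormones, Igfbp1, Igfbp2, Fgf21, Hamp2 and Serpina6, are also called members of lists described above, so this share is not independent of theirs. The positive hormone count was 3 without WT chow mouse 1 or 3, any WT HFD mouse or KO chow mouse 2, and 1 hormone was negative without WT HFD mouse 3 or KO HFD 2. Of 23 cytoskeletal genes of fatty liver Tuba8 (0.91 ± 0.20), Tubb2a (1.27 ± 0.30) and Anxa2 (-1.04 ± 0.24) passed. Tuba8 kept its call only without KO chow mouse 3 or KO HFD mouse 1, Tubb2a only without WT chow mouse 2 or KO HFD mouse 1 or 3 and Anxa2 only without KO chow mouse 1 or KO HFD mouse 1 or 3 (up to 0.0721, 0.0901 and 0.0906).

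Markers of other cell types gave no called interaction with all 12 arrays in the model: 0 of 10 for sinusoidal endothelium, 0 of 6 for cholangiocytes, 0 of 11 for T and NK cells, 0 of 6 for B cells, 0 of 8 for neutrophils, 0 of 5 for adipocytes, 0 of 7 for skeletal muscle, 0 of 6 for pancreatic acinar cells and 0 of 1 for erythroid cells. Some alternatives gave 1 negative endothelial member: Lyve1, a hyaluronan receptor gene, without WT chow mouse 1 (-1.96, limma adjusted p = 0.00427, against -1.40 ± 0.52 and 0.176 with all arrays), and Cdh5, an endothelial cadherin gene, with arrays centred on their medians (-0.46, 0.044), array weights (-0.42, 0.0497), trend and robust settings (-0.40, 0.0206) and among genes above the median signal (0.0189). Of 11 hepatocyte markers Serpina1a passed (0.50 ± 0.12), and it lost its call without any 1 of the 12 arrays (up to 0.109). At an unadjusted p under 0.05 these lists held 10 members. Of all genes, 17.3% had such a p and 3.53% had a called interaction. The neutrophil genes S100a8 and Ly6g averaged 3.94 to 4.20 and 3.80 to 4.20 over the groups, at or under the Xist level, and Adipoq, which marks adipocytes, 4.73 to 4.86.

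The genes just inside the threshold were D17H6S56E-5 (-0.74 ± 0.18, limma adjusted p = 0.0493), Osgin1 (1.25 ± 0.31, 0.0494) and Khnyn (1.08 ± 0.27, 0.0495), and those just outside were Eefsec (0.45 ± 0.11, 0.0503), Adh6-ps1 (1.02 ± 0.26, 0.0503) and Lrrc20 (0.56 ± 0.14, 0.0505). Of the 783 genes, 355 (135 positive and 220 negative) stayed below the threshold whichever array was left out, and all 783 kept their sign.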

How the data were processed

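Liver RNA of 12 mice was hybridised to 12 Affymetrix arrays, 1 mouse each. The authors deposited log2 probe set signals; per the submitters' processing notes they used oligo, whose version, background correction and normalization the sources used here do not give. Array medians were nearly equal, at 5.58 to 5.70, which by itself does not show whether or how the arrays had been normalized. Of 41345 probe sets, 23521 had a single symbol, 1814 had several and 16010 had no name here; the last 2 kinds were left out. Symbols were updated through gene numbers to RefSeq names of GRCm38.p6 (23328 matched, 193 kept the platform's symbol). The probe set with the highest mean stood for each of 22180 genes (1082 had more than 1), and no dim gene was removed.

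One linear model with 4 group means was fitted to the 12 arrays with limma 3.58.1 (lmFit and eBayes, R 4.3.3). The interaction, both diet responses and both genotype differences were contrasts of it, with Benjamini-Hochberg adjustment over all 22180 genes and a threshold of 0.05. All p-values of the model are two-sided. Each group has 3 mice, 1 array per mouse, so p-values measure the spread between mice. The fit was tested on simulated data. Named genes were the 10 most positive and 10 most negative called interactions, the 3 largest others in each class of WT and KO response, from each list up to 6 members by smallest p plus further examples, the 5 genes with the smallest p, 3 genes on either side of the threshold, and a fixed set of lipid, inflammation and control genes. Genes named because they passed under an alternative alone were chosen after their values were seen. Gene lists and this comparison were chosen with earlier results of these data known; 5 list genes were matched through older symbols. Alternatives were a replicate block, array weights, trend and robust settings, median centring, quantile normalization, a filter on dim genes, the mean of all probe sets, a 2-fold minimum, the linear scale, fits on 6 arrays and leaving out each array.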

Additional observations from a re-analysis of the deposited data

Results flagged for a closer look

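The diet response differed between KO and WT mice, by the limma interaction term, for 318 genes in the positive and 465 in the negative direction. Among genes with a positive interaction, the 10 largest differences of the KO from the WT response were 4.76 for Moxd1, 4.23 for Hsd3b5, 3.98 for Ugt2b38, 3.56 for Cyp4a12b, 3.52 for Fabp5, 3.45 for Cyp7b1, 2.97 for Irs2, 2.95 for Selenbp2, 2.95 for Ugt2b37 and 2.36 for C6, on the log2 scale. Of these, 7 are on the male-biased list: Moxd1, Hsd3b5, Ugt2b38, Cyp4a12b, Cyp7b1, Selenbp2 and C6.

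Among genes with a negative interaction, the 10 largest differences were -11.16 for Cyp2b9, -5.26 for Hamp2, -5.18 for Cyp2b13, -4.72 for Orm3, -4.55 for Rgs16, -4.15 for Slc22a27, -4.00 for Atp6v0d2, -3.94 for Thrsp, -3.69 for Ciart and -3.68 for Lpin1. Cyp2b9, Cyp2b13, Slc22a27 and Atp6v0d2, a proton pump subunit gene, are on the female-biased list. Atp6v0d2 read 6.55, 5.08 and 5.45 in WT mice fed chow, 8.04, 7.64 and 7.86 in WT mice fed HFD, 7.76, 7.70 and 7.28 in KO mice fed chow, and 7.16, 4.94 and 5.10 in KO mice fed HFD. Its WT mice on HFD overlapped KO mice on chow, and its KO mice on HFD spread from below the lowest WT chow value to above the highest.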

How the results depend on the processing

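No called gene changed sign under any alternative that gave it a value. Of genes named as not called, the sign of 2 turned. Xist had an interaction of 0.10 ± 0.22, with -0.014 to 0.245 when 1 array was left out and below 0 without WT HFD mouse 2. Clec4f had 0.02 ± 0.18, with -0.011 under array weights, -0.041 with arrays centred on their medians and -0.109 to 0.138 when 1 array was left out. The positive and negative counts of 318 and 465 moved to 491 and 710 with trend and robust settings, to 584 and 810 among genes above the median signal, where fewer genes were tested, and to 111 and 164 for at least 2-fold interactions. Leaving out 1 array gave 162 to 314 positive and 265 to 439 negative genes, 815 to 1691 genes changed in WT and 28 to 79 in KO. At least 2-fold changes numbered 206 in WT and 28 in KO. The KO count of 54 was 124 with trend and robust settings, 124 among genes above the median signal and 21 in a fit on the 6 KO arrays alone, where the spread comes from fewer arrays. Quantile normalization, array weights and averaging a gene's probe sets left all 4 counts within 1.5 times.

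The replicate numbers did not pair the mice: deviations from the group means correlated with r from -0.0639 to 0.0796 over 18 same-numbered pairs of arrays, with 0 pairs over 0.1. With the replicate number as a block, 247 positive and 365 negative interactions passed, 1290 genes changed in WT and 40 in KO, and 582 of the 783 genes were called in both fits. With 3 arrays per group, signals near the level of Xist (4.21 to 4.76) limit the size of falls that can be measured. Where other causes were not tested, the change of a count has no stated cause.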

Other observations

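Genes outside the lists and the selection rule also had large interactions, and those named here were chosen after their values were seen. Complement genes were not limited to C6: C8b, which encodes a chain of the membrane attack complex, averaged 12.94 in WT on chow, 11.68 in WT on HFD, 12.76 in KO on chow and 13.05 in KO on HFD, with an interaction of 1.55 ± 0.12 (limma adjusted p = 4.88e-05). Avpr1a, the vasopressin receptor gene of hepatocytes (1.90 ± 0.21, 0.000515), Erbb3, a receptor kinase of the Egfr family (1.71 ± 0.27, 0.00621), and Tbx3, a transcription factor of hepatocytes around the central vein (1.23 ± 0.17, 0.00209), fell on HFD in WT, with no call in KO. The immediate early gene Egr1 did the same (1.75 ± 0.34, 0.0166). Spon2, a secreted matrix protein gene, changed in opposite directions, by -0.83 in WT and 0.90 in KO (1.73 ± 0.19, 0.00045).

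On the negative side, Lgals1, a galactose-binding lectin gene, averaged 9.34 in WT on chow, 11.78 in WT on HFD, 8.85 in KO on chow and 8.40 in KO on HFD, with an interaction of -2.90 ± 0.24 (limma adjusted p = 6.52e-05). Gbp10, an interferon-induced GTPase gene with near copies (-2.72 ± 0.24, 0.000115), Themis, known from developing T cells (-2.37 ± 0.26, 0.000482), and the interleukin 1 receptor gene Il1r1 (-2.18 ± 0.35, 0.00631) rose in WT, with no call in KO. Gbe1, which branches glycogen (-1.60 ± 0.22, 0.00193), and Tsc22d3, a glucocorticoid target (-1.57 ± 0.20, 0.00136), shared this pattern. Each of the genes named in these paragraphs kept its call without any 1 array.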
